A study of Mus musculus with 8 samples.

Results

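The natriuretic peptides of the mouse heart were followed with their receptors and the enzymes that process or degrade them, 8 genes in all: *Nppa*, *Nppb*, *Nppc*, *Npr1*, *Npr2*, *Npr3*, *Corin* and *Mme*. Every non-control probe of an Agilent whole mouse genome array whose accession matched one of these genes was kept, which gave 15 of the array's 41174 probes and 8 of the 19096 genes that could be named. RNA came from whole hearts of embryos at E18.5, C57BL/6 by the labels and on the C57BL/6J background by the study's methods, from dams on a chow diet, with no treatment. There were 4 wild-type (WT) hearts and 4 SIRT1 KO hearts, 1 heart per array. SIRT1 is an NAD+-dependent protein deacetylase, and the SIRT1 KO embryos were, by the study's methods, without it in the whole body from the germ line, as homozygotes (Sirt1-/-) from heterozygous parents, so the heart was not the only organ affected. The hearts of both sexes were used and the sex of each embryo is not part of the comparison. The comparison asks which transcripts of this system differed between late fetal hearts with and without SIRT1.

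The 3 peptides act through receptors that are themselves enzymes. *Nppa* encodes atrial natriuretic peptide (ANP) and *Nppb* brain natriuretic peptide (BNP), both made by cardiomyocytes, and *Nppc* encodes C-type natriuretic peptide (CNP), made mainly by other cells. ANP and BNP bind the guanylyl cyclase NPR-A (*Npr1*) and CNP binds its relative NPR-B (*Npr2*), and both receptors make cGMP when occupied, while NPR-C (*Npr3*) has no cyclase and clears all of these peptides. Corin cuts the ANP precursor at the surface of cardiomyocytes, furin and corin cut the BNP precursor, and neprilysin (*Mme*) degrades the finished peptides. In the fetal heart *Nppa* is transcribed in atrial and trabecular ventricular cardiomyocytes, after birth mainly in the atria, and *Nppa* and *Nppb* return in ventricles under load.

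*Nppa* and *Nppb* are direct neighbours on chromosome 4 in the RefSeq annotation, with *Plod1* and *2510039O18Rik* on the side of *Nppb*, and *Clcn6* on the side of *Nppa*. The 250 bases before each start are shown because the transcription factors known to act on them are among the genes described further on. They are RefSeq sequence of build GRCm38.p6, plus strand, chr4:148000472-148000721 for *Nppa* and chr4:147985650-147985899 for *Nppb*, and lie upstream of the transcribed part. Capitals mark matches to motifs that were searched on both strands.
Nppa: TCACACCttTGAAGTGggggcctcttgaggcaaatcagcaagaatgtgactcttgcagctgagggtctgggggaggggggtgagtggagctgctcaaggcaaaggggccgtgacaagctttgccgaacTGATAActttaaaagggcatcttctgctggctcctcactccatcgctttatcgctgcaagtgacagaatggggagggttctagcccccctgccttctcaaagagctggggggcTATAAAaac
Nppb: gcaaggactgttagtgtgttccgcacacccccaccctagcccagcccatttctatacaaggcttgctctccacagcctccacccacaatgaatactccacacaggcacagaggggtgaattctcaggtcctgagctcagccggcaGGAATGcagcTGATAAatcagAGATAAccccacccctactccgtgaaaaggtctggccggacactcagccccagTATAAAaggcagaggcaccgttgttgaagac
The letters searched were TATAAA for the TATA box, AGATAA or TGATAA for GATA factors, TNAAGTG for NKX2-5 (the NKE), TCACACC for T-box factors, CATTCC for TEAD factors (the M-CAT element), and the CArG box of SRF. The *Nppa* window held, counted back from the start, a TATA box at bases 9 to 4, a GATA match at 122 to 117, an NKE match at 241 to 235 and a T-box match at 250 to 244. The *Nppb* window held a TATA box at bases 31 to 26, GATA matches at 84 to 79 and at 95 to 90, and an M-CAT match on the minus strand at 105 to 100, printed as GGAATG. These matches do not overlap one another. No CArG letters were found in either window. Of 32851 RefSeq promoter windows of this length, 12.4% held the TATA letters, 16.6% a GATA match, 10.1% an NKE match, 3.33% a T-box match, 12.6% an M-CAT match and 1.47% a CArG box, so that these matches describe the windows and do not mark sites in use.

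Intensities were read as log2 signal relative to the array's 75th percentile, so that 0 is the brightness at that percentile, 1 unit is a factor of 2, and levels of different probes cannot be set against each other. The 75th percentile was 939 to 1033 intensity units on the WT arrays and 777 to 906 on the SIRT1 KO arrays, 59.5% to 64.9% of probes were well above background, and no non-control spot was saturated. The 4 arrays of each genotype shared 1 slide and 1 scan day, and the effects of slide, of scan day and of genotype therefore cannot be told apart, which leaves no comparison within a slide. Of the 2 probes of *Sirt1*, the brighter (A_52_P358612) was higher in the hearts labelled SIRT1 KO, with a log2 fold change of 0.54 (s.e. 0.11, adjusted p = 0.0323 from limma), and the other (A_51_P141152) gave -0.11 (s.e. 0.11, adjusted p = 0.589 from limma). Where these probes lie relative to the deleted part was not analysed here. On neither probe did the arrays with the SIRT1 KO label lie lower past the threshold, so the genotypes rest on the labels alone, and the hearts are called WT-labelled and KO-labelled hearts from here on. Nothing in the labels ties the hearts of a genotype to separate litters, so the p-values measure the spread between these hearts. Of the markers of the organs around the heart, the 5 lung genes and the 4 thymus genes on the array (*Ptcra* was not found there) were not detected on enough arrays to be tested, while 11 of 11 atrial, 5 of 6 ventricular (not *Irx3*) and 7 of 7 general cardiomyocyte genes were.

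Among the 8 genes, *Npr2* was higher in the KO-labelled hearts on 2 of its 3 probes, 1 of the 2 *Mme* probes was lower in the fit but not well above background in 3 of the 4 KO-labelled hearts, and no probe of *Nppa*, *Nppb*, *Npr1*, *Npr3* or *Corin* passed the threshold. The test was limma across all 25616 probes that stood well above background in no fewer than 4 of the 8 hearts, with Benjamini-Hochberg adjustment over all of them and a threshold of 0.05. Of the 15 probes, 14 passed this filter, 11 were well above background on all 8 arrays, and the single probe of *Nppc* was left out. Of the 14 probes 3 passed the threshold (21.4%), 2 of them higher and 1 lower in the KO-labelled hearts, whereas 4.88% of all tested probes passed it, 3.97% being higher and 0.910% lower. The *Mme* probe among these 3 passed the filter through the WT-labelled hearts, where it is high. With detection required on all 8 arrays it was not tested, and 2 of 11 probes passed the threshold, 2 higher and 0 lower. Of all 23483 probes tested with that stricter filter 1186 passed, 922 higher and 264 lower. The 2 genotypes did not overlap on 4 of the 14 probes (28.6%) and on 13.7% of all tested probes. Several of these probes share a gene, so the 3 calls stand for 2 genes. In the fit, 5 of the 14 probes were higher and 9 lower, with a median log2 fold change of -0.19 beside 0.01 over all tested probes. Without scaling between arrays 4 were higher and with normexp background correction 6 were.

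**Figure D1:**
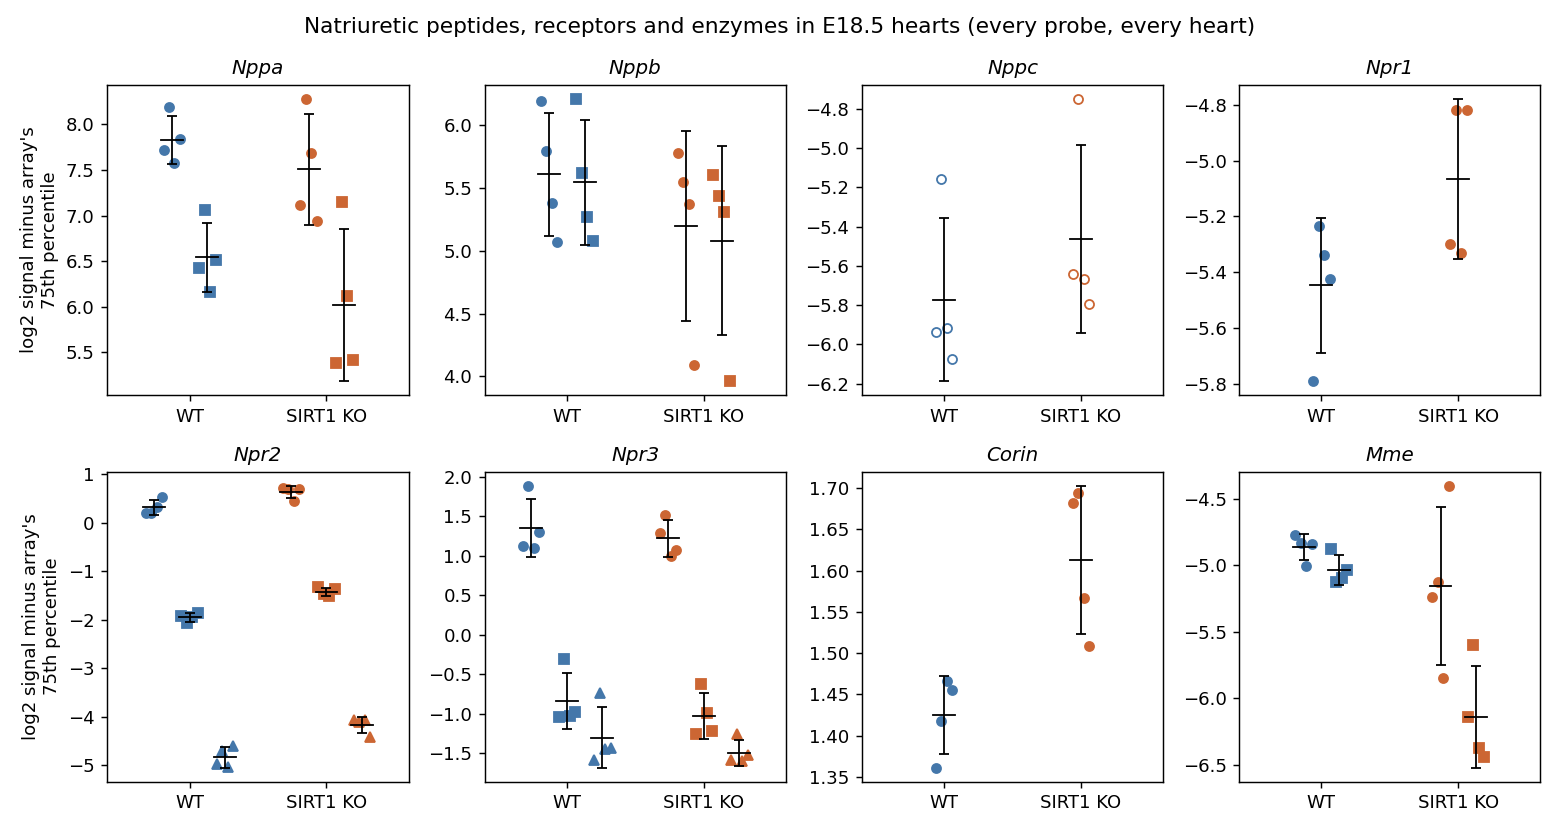
Log2 signal relative to the array's 75th percentile (y axis, a separate scale per gene) for every probe of the 8 genes in the 4 WT-labelled (blue) and 4 KO-labelled (orange) hearts, each point being 1 heart, horizontal lines the mean and bars the SD, with marker shapes for the probes of a gene from the brightest (circle) to the dimmest, and open circles for the *Nppc* probe that was not tested. The genotypes separate on the 2 dimmer *Npr2* probes, on *Corin* and on the dimmer *Mme* probe, and overlap on every *Nppa*, *Nppb*, *Npr1* and *Npr3* probe.

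*Nppa*, the ANP gene, was printed on 2 probes with 10 spots each on every array, and both overlapped between the genotypes. On the brighter probe (A_52_P580582) the log2 signal was 7.71, 8.19, 7.58 and 7.84 in the WT-labelled hearts 1 to 4, and 7.12, 8.28, 7.68 and 6.94 in the KO-labelled hearts 1 to 4. The highest value of all was that of KO-labelled heart 2 and the lowest were those of KO-labelled hearts 1 and 4. The mean was 7.83 ± 0.26 (SD, n = 4) in the WT-labelled and 7.51 ± 0.61 (SD, n = 4) in the KO-labelled hearts, a log2 fold change of -0.33 (s.e. 0.28, 95% confidence interval -0.95 to 0.30, adjusted p = 0.530 from limma), or 79.8% of the WT level. On the other probe (A_51_P361340) the values were 6.43, 7.06, 6.16 and 6.52 in the WT-labelled and 5.38, 7.15, 6.12 and 5.42 in the KO-labelled hearts. The order of the KO-labelled hearts differed from that of the first probe only in its 2 lowest members. Its log2 fold change was -0.52 (s.e. 0.38, 95% confidence interval -1.38 to 0.33, adjusted p = 0.455 from limma). Within an array the spots of these probes had an SD of 0.08 to 0.18 on the brighter and of 0.05 to 0.09 on the other probe. The spread between hearts was larger than that, with a highest heart 1.52-fold above the lowest among the WT-labelled and 2.53-fold among the KO-labelled hearts on the brighter probe, and 1.88-fold and 3.42-fold on the other. In RNA of a whole heart, fewer cells of a type and less RNA per cell cannot be told apart.

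The hearts at the extremes of *Nppa* also stood apart in other genes. Of the 14 probes of the 11 atrial markers 12 were lower in the KO-labelled hearts in the fit, and the median of all 14 was -0.17 on the log2 scale. The summed signal of the atrial markers, in multiples of the 75th percentile, was 332, 527, 378 and 374 in the WT-labelled hearts and 256, 502, 315 and 303 in the KO-labelled hearts, so that heart 2 was the highest of each genotype, as on both *Nppa* probes. All 11 of these genes were detected and tested, and the brightest probes, those of *Myl7*, *Myl4* and *Sln*, weigh most in the sum. *Sln*, which encodes the atrial calcium pump inhibitor sarcolipin and was picked after its values were seen, had 5.33, 6.48, 5.55 and 5.44 in the WT-labelled and 3.86, 6.09, 4.85 and 5.16 in the KO-labelled hearts (log2 fold change -0.71, s.e. 0.44, adjusted p = 0.384 from limma). The part of the atrial share of a sample in the *Nppa* values was not tested. Liver markers were highest in the KO-labelled hearts that were lowest in *Nppa*, which did not hold among the WT-labelled hearts. The summed signal of the 5 liver markers was 7.55, 4.41, 4.05 and 13.4 in the WT-labelled hearts and 59.8, 7.60, 4.92 and 29.5 in the KO-labelled hearts, the highest being those of KO-labelled hearts 1 and 4, which were also the lowest in *Nppa*. Of the WT-labelled hearts, number 4 was the highest in liver markers and second in *Nppa*, and number 3 was the lowest in both. No liver probe passed the threshold (0 of 4 tested, also 0 at an unadjusted p under 0.05 in limma), and *Ttr* was not tested. With 1 heart left out, the log2 fold change ranged from -0.58, without KO-labelled heart 2, to -0.14, without KO-labelled heart 4, on A_52_P580582. On A_51_P361340 it ranged from -0.90, without KO-labelled heart 2, to -0.31, without KO-labelled heart 1. The fits without KO-labelled heart 2 did not pass the threshold either (adjusted p = 0.197 and 0.109 from limma). With KO-labelled hearts 1 and 4 both left out, a choice made after their values were seen, the *Nppa* log2 fold changes turned to 0.15 (adjusted p = 0.798 from limma) on A_52_P580582 and 0.10 (adjusted p = 0.927 from limma) on A_51_P361340. As these 2 hearts were the lowest in *Nppa*, leaving them out had to raise both values, whatever their liver markers. The part of liver transcripts in the *Nppa* values was not tested.

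*Nppb*, the BNP gene, varied in the same way over the hearts on both of its probes and did not pass the threshold on either. On the brighter probe (A_51_P426195) the log2 signal was 6.20, 5.80, 5.38 and 5.07 in the WT-labelled hearts 1 to 4, and 5.78, 5.55, 5.37 and 4.09 in the KO-labelled hearts 1 to 4. KO-labelled heart 4 was the lowest by far, and the other 3 KO-labelled hearts lay within the range of the WT-labelled hearts. The log2 fold change was -0.41 (s.e. 0.37, 95% confidence interval -1.26 to 0.43, adjusted p = 0.555 from limma). Without KO-labelled heart 4 it was -0.05. On the other probe (A_52_P559955) it was -0.46 (s.e. 0.37, adjusted p = 0.507 from limma), with 6.21, 5.62, 5.27 and 5.08 against 5.61, 5.44, 5.31 and 3.96. The highest heart was 2.18-fold above the lowest among the WT-labelled and 3.23-fold among the KO-labelled hearts on the brighter probe. The hearts did not line up in *Nppb* as they did in *Nppa*: heart 2, the highest of each genotype in *Nppa*, was second to heart 1 in *Nppb* in both, and KO-labelled heart 1, low in *Nppa*, was the highest KO-labelled heart in *Nppb*.

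*Nppc*, the CNP gene, was near the limit of detection. Its probe (A_51_P401894) had -5.94, -5.16, -5.92 and -6.07 in the WT-labelled and -5.64, -4.75, -5.67 and -5.80 in the KO-labelled hearts. It was well above background only in heart 2 of each genotype, the 2 hearts highest in *Nppa*, and no fold change is given. The lowest level that counted as well above background lay between -5.86 and -5.31 on the 8 arrays.

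By a rule of likeness, the genes whose signal followed *Nppa* and *Nppb* most closely from heart to heart were taken from all tested and named probes, over the 8 arrays. These correlations are the highest of many, share the scaling of each array, and are a description without a test. With the genotype means subtracted, *Clcf1*, a cytokine of the interleukin-6 family (r = 0.980), *Riox1*, an oxygenase of histones and ribosomal proteins (r = 0.980), and *Il11ra1*, the receptor of interleukin-11 (r = 0.969), were most like *Nppa*. With levels as they were, these were *Nkx6-2*, a homeobox gene (r = 0.955), *Cracd*, an inhibitor of actin capping (r = 0.953), and *Myl4*, the atrial essential myosin light chain (r = 0.949). Spearman's rho was 0.976, 1.00, 0.976, 0.810, 0.857 and 0.857 in this order, and r was 0.950, 0.940, 0.946, 0.880, 0.83 and 0.931 without the 2 hearts farthest from the median of *Nppa*. *Clcf1* itself was higher in the KO-labelled hearts in the fit (1.19, adjusted p = 0.0235 from limma), on a dim probe with a mean log2 signal of -5.26. It had -5.91, -6.00 and -5.85 in WT-labelled hearts 1, 3 and 4. The lowest levels that counted as well above background there were -5.79, -5.77 and -5.55. The probe thus passed the filter through the KO-labelled hearts, where it is high, and this is not a measured fold. The signal of *Myl4* was 6.17, 6.77, 6.32 and 6.34 in the WT-labelled and 5.93, 6.75, 6.26 and 5.93 in the KO-labelled hearts, again highest in heart 2 and lowest in KO-labelled hearts 1 and 4.

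For *Nppb* the most similar genes after subtraction of the genotype means were *Midn*, which encodes the nuclear protein midnolin (r = 0.992), *Rpp25*, a subunit of ribonuclease P (r = 0.991), and *Klhl15*, a ubiquitin ligase adaptor (r = 0.983). With levels as they were, they were *Ankrd1*, a cardiac ankyrin repeat protein that responds to stretch (r = 0.981), the F-box gene *Fbxo30* (r = 0.980), and *Gas2l3*, a linker of actin and microtubules (r = 0.979). Spearman's rho was 0.952, 0.976, 0.952, 0.929, 0.976 and 0.929, and r without the 2 hearts farthest from the median was 0.972, 0.967, 0.916, 0.920, 0.939 and 0.921. *Ankrd1* had 6.66, 6.50, 6.25 and 6.12 in the WT-labelled and 6.48, 6.28, 6.37 and 5.35 in the KO-labelled hearts, so that KO-labelled heart 4 was the lowest here too. Its log2 fold change was -0.26 (s.e. 0.24, adjusted p = 0.564 from limma). None of the 3 genes most like *Nppb* on either scale passed the threshold.

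**Figure D2:**
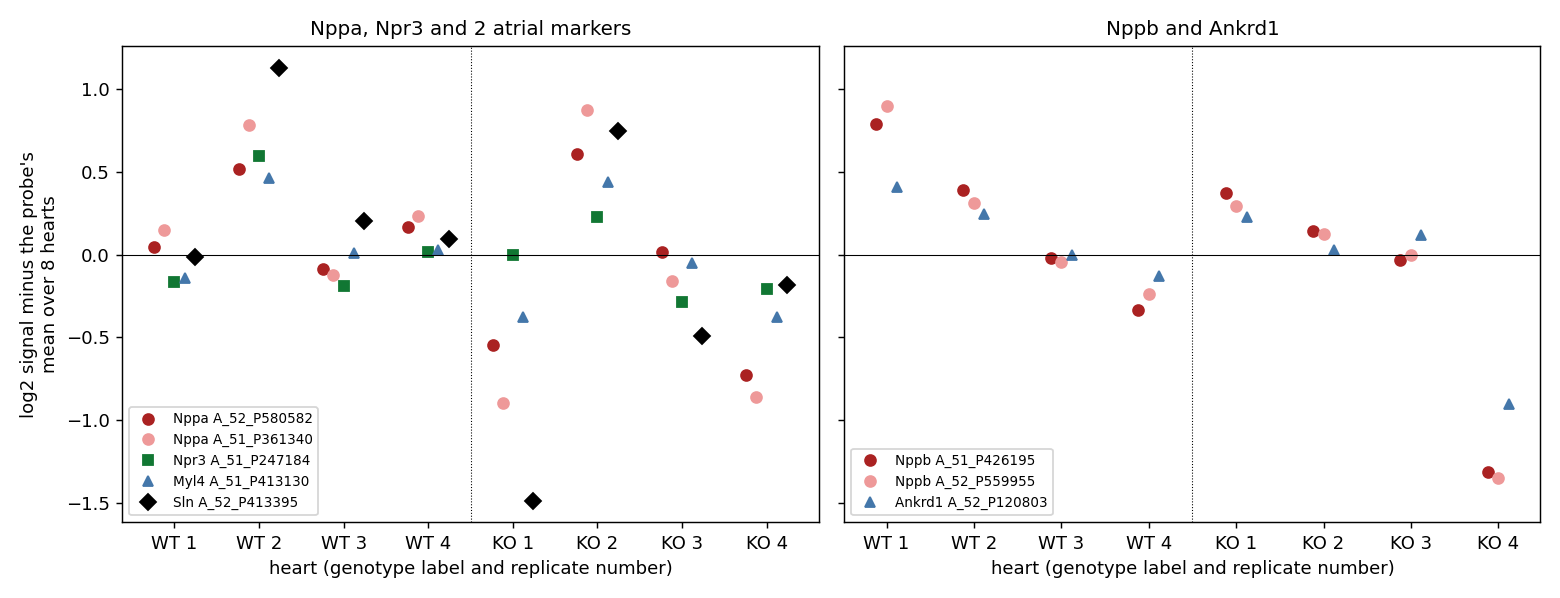
Log2 signal of each heart minus the mean of the probe over all 8 hearts (y axis) for the 4 WT-labelled and 4 KO-labelled hearts (x axis), with *Nppa*, the brightest *Npr3* probe, *Myl4* and *Sln* on the left and *Nppb* and *Ankrd1* on the right, each point being 1 probe in 1 heart. Heart 2 is the highest of each genotype for every probe on the left, and KO-labelled heart 4 is the lowest for every probe on the right.

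Of the receptors, *Npr2* was higher in the KO-labelled hearts, and *Npr1* and *Npr3* did not pass the threshold; differences between the receptors were not tested. The second brightest *Npr2* probe (A_52_P489373) had -1.91, -2.07, -1.95 and -1.85 in the WT-labelled and -1.33, -1.47, -1.50 and -1.37 in the KO-labelled hearts. Every KO-labelled heart lay above every WT-labelled heart, at 144% of the WT level. The log2 fold change of this CNP receptor probe was 0.53 (s.e. 0.08, 95% confidence interval 0.35 to 0.70, adjusted p = 0.00721 from limma, exact two-sided permutation p = 0.0286, the smallest that 4 against 4 allow). It passed the threshold in all 8 fits that left out a heart, between 0.48 and 0.56, and missed it without scaling between arrays (0.31, adjusted p = 0.0514 from limma) and without KO-labelled hearts 1 and 4 together (0.46, adjusted p = 0.0635 from limma).

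The dimmest *Npr2* probe (A_52_P565549), which was still well above background in every heart, had -4.98, -4.70, -5.04 and -4.59 in the WT-labelled and -4.06, -4.11, -4.07 and -4.41 in the KO-labelled hearts. Here too the genotypes did not overlap, with KO-labelled heart 4 next to the WT-labelled hearts. The log2 fold change was 0.67 (s.e. 0.13, 95% confidence interval 0.38 to 0.95, adjusted p = 0.0205 from limma). It passed in 4 of the 8 fits with a heart left out and missed the threshold without WT-labelled heart 1 (adjusted p = 0.0559 from limma) or 3 (0.0596), and without KO-labelled heart 1 (0.0604) or 2 (0.0577). It also missed it under quantile normalization (0.49, adjusted p = 0.0765) and cyclic loess (0.52, adjusted p = 0.0731), in the methods' analysis of variance (adjusted p = 0.0728) and without KO-labelled hearts 1 and 4 together (0.74, adjusted p = 0.0518). The brightest *Npr2* probe (A_51_P518940) had 0.21, 0.21, 0.32 and 0.53 in the WT-labelled and 0.72, 0.69, 0.46 and 0.69 in the KO-labelled hearts. It overlapped by 1 heart on each side, KO-labelled heart 3 lying below WT-labelled heart 4. Its log2 fold change was 0.32 (s.e. 0.10, 95% confidence interval 0.10 to 0.55, adjusted p = 0.106 from limma), which did not pass. All 3 probes were thus higher in the fit, by 0.32 to 0.67, and the part of the transcript that each probe reads is not analysed here.

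*Npr1*, the ANP and BNP receptor, was read by 1 probe near background (A_51_P182693), well above it in 3 of 4 hearts of each genotype. Its values were -5.79, -5.23, -5.34 and -5.42 in the WT-labelled and -5.30, -4.82, -5.33 and -4.82 in the KO-labelled hearts. KO-labelled hearts 2 and 4 lay above all WT-labelled hearts and the other 2 among them. Its log2 fold change was 0.38 (s.e. 0.16, 95% confidence interval 0.01 to 0.75, adjusted p = 0.222 from limma). With normexp background correction it was 0.34 and passed (adjusted p = 0.0205 from limma).

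*Npr3*, the clearance receptor and in the heart a marker of endocardium, was read by 3 probes that overlapped throughout. The brightest (A_51_P247184) had 1.12, 1.89, 1.10 and 1.31 in the WT-labelled and 1.29, 1.52, 1.00 and 1.08 in the KO-labelled hearts. On all 3 probes heart 2 was the highest of its genotype, as on both *Nppa* probes, and KO-labelled heart 1, low in *Nppa*, was second among the KO-labelled hearts on this probe. The log2 fold changes were -0.13 (95% confidence interval -0.55 to 0.29), -0.18 (-0.63 to 0.26) and -0.19 (-0.60 to 0.21), with adjusted p between 0.568 and 0.719 from limma. Without WT-labelled heart 2 they were 0.04 on A_51_P247184, -0.0062 on A_51_P356883 and -0.0059 on A_52_P400798. The 4 other endocardial markers had a median log2 fold change of -0.01 over 9 probes, none past the threshold and none at an unadjusted p under 0.05.

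*Corin*, the ANP convertase, had the smallest range among the WT-labelled hearts of all 15 probes, 0.11. Its probe (A_51_P135268) had 1.36, 1.42, 1.47 and 1.46 in the WT-labelled and 1.68, 1.69, 1.57 and 1.51 in the KO-labelled hearts. Each KO-labelled heart lay above each WT-labelled heart (exact two-sided permutation p = 0.0286), at 114% of the WT level. The difference of 0.19 on the log2 scale (s.e. 0.07, 95% confidence interval 0.02 to 0.35) did not pass the threshold over all probes (adjusted p = 0.180 from limma), and without scaling between arrays it was -0.03.

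*Mme*, the neprilysin gene, was lower in the KO-labelled hearts on the dimmer of its 2 probes (A_52_P429723), close to background. The log2 signal was -4.88, -5.13, -5.09 and -5.04 in the WT-labelled and -6.14, -5.60, -6.37 and -6.44 in the KO-labelled hearts. The genotypes did not overlap, and the probe was well above background in 4 of 4 WT-labelled hearts and in 1 of 4 KO-labelled hearts, number 2. The log2 fold change was -1.10 (s.e. 0.17, 95% confidence interval -1.50 to -0.71, adjusted p = 0.00873 from limma). As 3 KO-labelled values are not well above background, this is not a measured fold, and with detection required on all arrays the probe was not tested. It passed in all 8 fits that left out a heart and missed the threshold in the methods' analysis of variance (adjusted p = 0.0564). The signal behind it was 9.37 to 34.9 intensity units after subtraction, over a local background of 45 to 56.5, and the error that Feature Extraction gave was 15.3% to 50.1% of the signal. With normexp background correction the log2 fold change was -0.08 (adjusted p = 0.568 from limma). Without KO-labelled hearts 1 and 4 it was -0.95 and did not pass (adjusted p = 0.0689 from limma). The other *Mme* probe (A_52_P93837) had -4.77, -4.83, -5.0 and -4.84 in the WT-labelled and -5.24, -5.13, -5.85 and -4.40 in the KO-labelled hearts. There 3 KO-labelled hearts lay below and KO-labelled heart 4 above all WT-labelled hearts, with a log2 fold change of -0.29 (s.e. 0.25, 95% confidence interval -0.87 to 0.28, adjusted p = 0.537 from limma). Without KO-labelled heart 3 it was -0.06, and without KO-labelled heart 4 it was -0.54 and did not pass (adjusted p = 0.126 from limma). Both *Mme* probes were thus lower in the fit and 1 passed, and the difference between them was not tested. If each gene was read only on its brightest probe, 0 of the 7 tested genes passed the threshold and 3 had an unadjusted p under 0.05 in limma, as did 5504 of all 25616 tested probes.

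**Figure D3:**
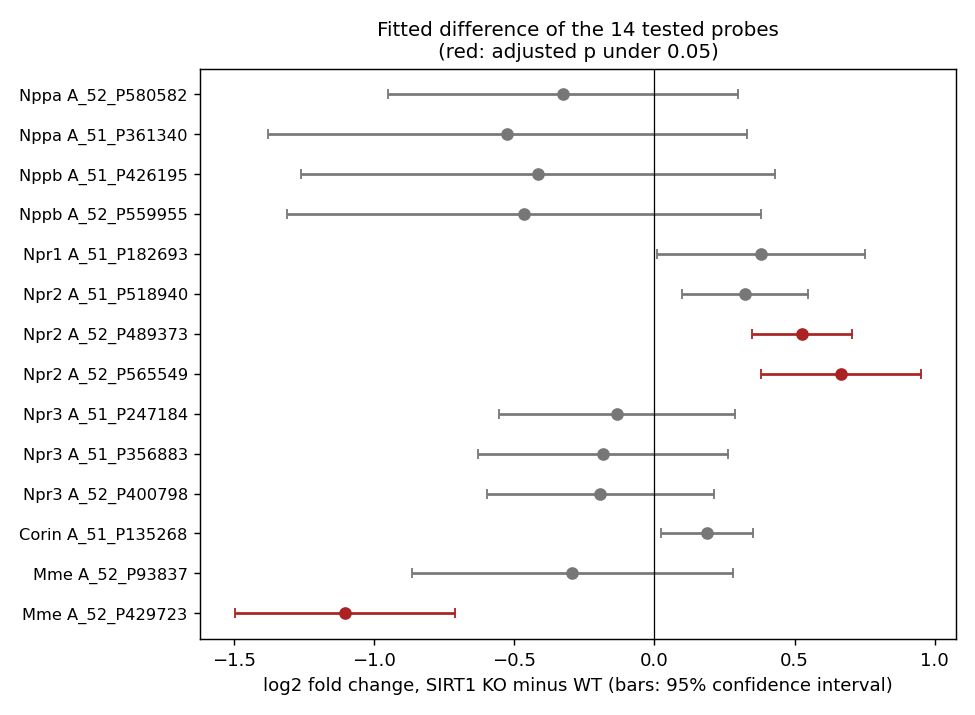
Fitted log2 fold change, KO-labelled minus WT-labelled hearts (x axis), with its 95% confidence interval for the 14 tested probes (y axis), in red where the adjusted p was under 0.05 over all probes. The red points are the *Npr2* probes at 0.53 and 0.67 and the *Mme* probe at -1.10, which was well above background in 1 of 4 KO-labelled hearts, and the intervals of *Nppa*, *Nppb* and *Npr3* all span 0.

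The other genes of the pathway were taken as 6 lists of 52 genes, of which 47 could be tested on 83 probes. No probe of these lists was higher past the threshold, against 3.97% of all tested probes. Lower past it were 3, a share of 3.61% against 0.910% of all tested probes. In either direction 4.88% of all tested probes passed, against the same 3.61% of these lists. In the fit 32 probes were higher and 51 lower, with a median of -0.05. The 3 probes past the threshold belonged to *Pcsk6* and *Gucy1a1*. *Pcsk6* encodes the proprotein convertase PACE4, which activates corin. On its brighter probe (A_52_P376574) the signal was 2.52, 2.67, 2.49 and 2.47 in the WT-labelled and 2.08, 2.16, 2.29 and 2.23 in the KO-labelled hearts, which did not overlap. Its log2 fold change was -0.35 (s.e. 0.08, 95% confidence interval -0.53 to -0.17, adjusted p = 0.0404 from limma). It passed in 1 of the 8 fits with a heart left out, the one without KO-labelled heart 3. The dimmer *Pcsk6* probe gave -0.44 (s.e. 0.27, adjusted p = 0.380 from limma).

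*Gucy1a1* encodes the alpha subunit of the soluble guanylyl cyclase, which makes cGMP in response to nitric oxide and so is not part of the natriuretic peptide receptors. On its dimmest probe (A_52_P452540) the signal was -2.08, -1.95, -1.87 and -1.78 in the WT-labelled and -2.93, -2.54, -2.92 and -2.32 in the KO-labelled hearts. The genotypes did not overlap, and the log2 fold change was -0.76 (s.e. 0.15, adjusted p = 0.0218 from limma). The probe A_51_P199993 gave -0.53 (s.e. 0.10, adjusted p = 0.0235 from limma), and the brightest, A_51_P199987, gave -0.48 (s.e. 0.12, adjusted p = 0.0580 from limma), again without overlap. With 1 heart left out, the first of these passed in 4 and the second in 5 of the 8 fits. Over all the lists the count of probes past the threshold was 0 without KO-labelled heart 1 (13 at an unadjusted p under 0.05) and 0 without WT-labelled heart 4 (10 at an unadjusted p under 0.05). It was 1 without WT-labelled heart 1, 2 or 3.

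By list, 11 of 11 probes of the 7 tested genes for peptide processing and clearance were lower in the fit, with a median of -0.22 and 1 past the threshold, against 0.910% of all tested probes that were lower past it, and the genotypes did not overlap on 3, against 13.7% of all tested probes. *Furin*, the convertase of the BNP precursor, gave -0.01 (95% confidence interval -0.22 to 0.20). Of this list *Ostn* and *Klk1* were not detected on enough arrays. Among the cGMP effectors 4 of 13 probes were higher and 9 lower with a median of -0.13, none past the threshold and 2 at an unadjusted p under 0.05. The 2 probes of *Prkg1*, the cGMP-dependent protein kinase of heart and vessels, gave -0.23 (adjusted p = 0.288 from limma) and -0.25 (adjusted p = 0.357 from limma), and *Prkg2* and *Kcnma1* were not detected on enough arrays. The 16 probes of the cGMP phosphodiesterases had a median of -0.02, with none past the threshold or at an unadjusted p under 0.05. *Pde5a*, the cGMP-specific phosphodiesterase, gave -0.26 (95% confidence interval -0.61 to 0.09). The list of nitric oxide and soluble guanylyl cyclase had 6 of 7 probes lower with a median of -0.25, including the 2 of *Gucy1a1* past the threshold, and *Gucy1a2* was not matched on the array.

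The transcription factors that act on the *Nppa* and *Nppb* promoters shown above, among them GATA4, NKX2-5, TBX5, SRF and TEAD1, gave no probe past the threshold. Of their 30 probes, from 17 genes, 15 were higher and 15 lower, with a median log2 fold change of 0.00 and 2 at an unadjusted p under 0.05. The genes of load and stress in the ventricle that are often read with *Nppa* and *Nppb* (*Acta1*, *Ankrd1*, *Xirp2* and *Myh7*) did not overlap between the genotypes on 5 of 6 probes, against 13.7% of all tested probes, 3 of the 6 being higher and 3 lower in the fit. Of these only the dimmer probe of *Myh7*, the slow myosin heavy chain of the fetal ventricle, passed the threshold (0.36, s.e. 0.07, adjusted p = 0.0283 from limma). It passed in 2 of the 8 fits with a heart left out. The ventricular markers summed to 1174 to 1284 times the 75th percentile in the WT-labelled and 1368 to 1612 times in the KO-labelled hearts. The brightest probes, those of *Myh7*, *Myl2* and the brighter of *Myl3*, weigh most in this sum. Of the 7 tested ventricular probes 5 were higher and 2 lower in the fit, with a median of 0.13. Only that *Myh7* probe passed (14.3%, against 3.97% of all tested probes that were higher past the threshold). The genotypes did not overlap on 2 of the 7, against 13.7% of all tested probes. The part of the summed signal in the values of the natriuretic peptide genes was not tested.

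**Figure D4:**
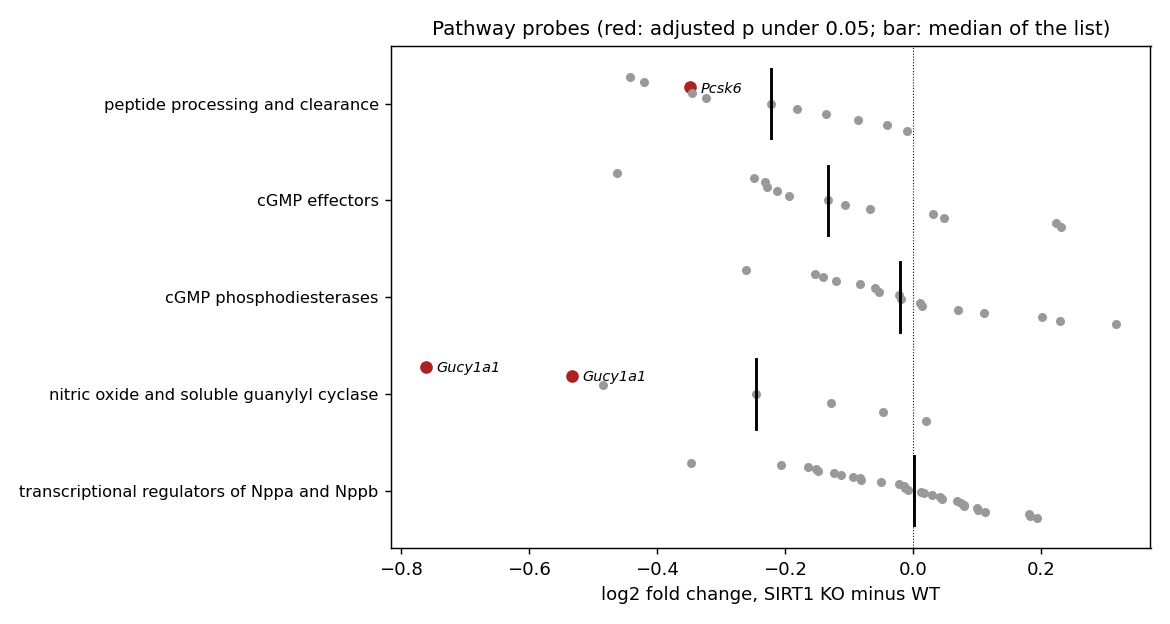
Fitted log2 fold change, KO-labelled minus WT-labelled hearts (x axis), of every tested probe in the 5 pathway lists described by name (y axis), each point being 1 probe, with a vertical bar at the median of the list and red points where the adjusted p was under 0.05. The 3 red points are the *Pcsk6* probe at -0.35 and the *Gucy1a1* probes at -0.53 and -0.76, and all 11 points of peptide processing and clearance lie below 0.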

How the data were processed

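Cy3-labeled RNA of 8 E18.5 hearts, 4 per genotype, was hybridized to one-color Agilent arrays. The authors deposited, per the file headers, the intensity of each spot from Feature Extraction 12.0.0.7, after background subtraction and error modelling and before any scaling. The study's methods name an earlier version of this software. The deposited table of intensity values for the series equals these in 100% of spots.

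Here the processed signals were put on a log2 scale, each array was scaled by subtracting its 75th percentile over non-control spots, and replicate spots were averaged after outlier-flagged spots were removed. Accessions matched RefSeq names (GRCm38.p6) for 28223 of 41174 probes (68.5%). The 25616 probes well above background in 4 or more hearts were tested in R 4.3.3 with limma 3.58.1 (functions lmFit and eBayes, genotype as the only factor, Benjamini-Hochberg adjustment at 0.05). Single probes were also compared by the exact two-sided permutation test. No array was dropped and no value of the 15 probes was missing. Precision is limited by the number of arrays. The fit was tested on simulated data.

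The genes, pathway lists and markers were chosen with earlier results of these data known. The text names every probe of the 8 genes, the pathway genes past the threshold, *Furin*, *Pcsk6*, *Prkg1* and *Pde5a*, the 3 genes most like *Nppa* and *Nppb* on each of 2 scales, and markers that passed or were not detected. *Sln* and the other load genes were named after their values were seen. Some items of the lists are not reported here. Alternatives covered background correction, scaling, the filter, the test, array weights, the replicate block, the deposited series table, the probe of a gene, and each heart left out. Tables and plots were made with Python 3.11.15, pandas 2.3.3, scipy 1.17.1 and matplotlib 3.10.9.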

Additional observations from a re-analysis of the deposited data

Results flagged for a closer look

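In 48 groups of 4 hearts (the 15 probes and the 9 probes of the pathway genes named above, in each genotype), the highest or lowest heart was set against the others by Dixon's test, which flags about 1 in 20 groups by chance, and 5 were flagged. Heart 2 was far above the others on the *Nppc* probe in both genotypes, at -5.16 against -6.07 to -5.92 among the WT-labelled hearts and at -4.75 against -5.80 to -5.64 among the KO-labelled hearts. On the *Npr3* probe A_51_P356883 WT-labelled heart 2 was at -0.31, against -1.04 to -0.98 in the other WT-labelled hearts. On the brightest *Npr2* probe (A_51_P518940) KO-labelled heart 3 was at 0.46, against 0.69 to 0.72 in the other KO-labelled hearts. On the dimmest *Npr2* probe (A_52_P565549) KO-labelled heart 4 was at -4.41, against -4.11 to -4.06.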

How the results depend on the processing

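Over 305 values of the 14 tested probes under the alternatives, 281 kept their direction and their side of the threshold, 3 newly passed a threshold (*Npr1* with normexp, and *Corin* and the brightest *Npr2* probe only at the unadjusted threshold of the methods' analysis of variance), 14 no longer passed and 7 turned in direction, none of these 7 past the threshold. Those that turned were *Nppa* without the 2 hearts highest in liver markers (0.10 on A_51_P361340 and 0.15 on A_52_P580582), *Npr3* on A_51_P356883 without the same hearts (0.0333) and on A_51_P247184 with array weights (0.0309) and with 1 heart left out (-0.23 to 0.0448, the latter without WT replicate 2), *Corin* without scaling between arrays (-0.0321), and the brighter *Mme* probe with normexp (0.0335). The cause was not tested. The deposited series table equals the array values in 100% of spots, so its values among the 305 were bound to stay the same. Of the probes of the 8 genes, 3 passed in the reported fit, 1 in the methods' analysis of variance after Benjamini-Hochberg adjustment and 5 at its unadjusted threshold, 0 without the 2 hearts highest in liver markers (4 at an unadjusted p under 0.05 in limma), and 2 to 3 with 1 heart left out. With 1 probe per gene, 0 genes passed in place of 2. Of the 83 pathway probes, 3 passed in the reported fit, 7 with median scaling, 19 without scaling, 1 without a filter on dim probes, 0 in the methods' analysis of variance (11 at its unadjusted threshold), 1 without the 2 hearts highest in liver markers and 0 to 4 with 1 heart left out. Over all probes, 1250 passed in the reported fit, 2130 with array weights, 2566 with normexp, 6347 without scaling, 546 in the methods' analysis of variance (5137 at its unadjusted threshold), 645 without the 2 hearts highest in liver markers, and 657 to 1825 with 1 heart left out. The lowest of these counts were 657 without WT replicate 3, 658 without WT replicate 2, 726 without SIRT1 KO replicate 2 and 728 without SIRT1 KO replicate 1. Of the probes past the threshold 81.4% were higher in the reported fit, 63.9% with quantile normalization, 38.1% with median scaling, 70.5% with cyclic loess and 10.04% without any scaling. All tested probes together had a median log2 fold change of 0.01 in the reported fit, -0.12 with median scaling and -0.21 without scaling, so that changes under these 2 settings are relative to those shifts.

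Replicate numbers are shared by the genotypes. Hearts of the same number deviated together with correlations of 0.204, 0.207, 0.0562 and 0.141, each heart matching its own number best. The study's design text speaks of 4 pairs of hearts without saying what ties a pair, and the labels give no shared litter, so the match is a hint and the block was not used in the reported fit. With the replicate number as a block 2 probes of the 8 genes, 2 pathway probes and 1185 probes in all passed. Of the 3 probes of the 8 genes, the dimmest *Npr2* probe then missed the threshold (adjusted p = 0.0611 from limma). *Nppb* was, on its brighter probe, lower in the KO-labelled heart of the same number in 4 of 4 pairs, in pair 3 only by 5.37 against 5.38. That probe had an unadjusted p of 0.0407 with the block in limma and did not pass (adjusted p = 0.189). Its other probe, higher in the KO-labelled heart in pair 3 (5.31 against 5.27), did not pass either (adjusted p = 0.210 from limma). Normexp on the mean signal was not run, since the files used have no such column, and the median signal took its place. That setting and the removal of the 2 hearts highest in liver markers were chosen after seeing the data. Near background, as for *Nppc*, *Npr1* and *Mme*, the signal over background limits what can be read.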
